A study of Mus musculus with 24 samples.

Results

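The genes of steroid hormone synthesis in the Leydig cell were examined in mice without Nur77, the orphan nuclear receptor that Nr4a1 encodes. Members were taken by symbol from the array's annotation, as any probe named Star, Cyp11a1, Cyp17a1, Hsd3b1, Hsd17b3, Fdx1, Lhcgr or Insl3. Of these 8 genes, 6 had a probe, with 7 probes of the 20205 on the array, 2 of them for Star. They stand among 9834 genes with 1 symbol. Lhcgr, the receptor for luteinising hormone, and Insl3, a peptide hormone of the Leydig cell, were not analysed here.

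RNA of a pool of Nur77-/- mice was hybridised against RNA of a pool of wild-type (Nur77+/+) mice on cDNA arrays read in 2 colours. The organs were testis, lung, heart, spleen, skeletal muscle and brown adipose tissue, with 4 arrays each, or 24 together. Cy5 marked the mutant pool on replicates 1 and 2 of each organ and Cy3 did on replicates 3 and 4. The series' design text gives 7 mice per pool, while the labelling protocol gives a control pool of 6 animals, and this was not settled. For age, strain, sex and the making of the mutation, nothing is given in the labels. The wild-type channel of heart replicate 2 is labelled skeletal muscle. Within an organ the same 2 pools were compared on all 4 arrays, so p-values measure the error between hybridisations and not the spread between animals.

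Leydig cells make testosterone from cholesterol. Luteinising hormone acts through Lhcgr and cyclic AMP, StAR carries cholesterol to the inner mitochondrial membrane, and CYP11A1 cleaves the side chain to give pregnenolone with electrons that ferredoxin (Fdx1) passes on. 3β-hydroxysteroid dehydrogenase, CYP17A1 and HSD17B3 then lead to testosterone. In Leydig cells Nur77 is known as an immediate early factor that hormone induces and that can bind the promoters of steroidogenic genes, on its own at an element called NBRE, which shares its core letters with the site of SF-1 (Nr5a1).

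The promoter windows of 2 members are shown because one holds matches to such letters and the other belongs to the member that was measured most precisely. RefSeq's table (GRCm38.p6) held 7 windows for 6 of the 8 genes, Hsd3b1, Insl3, Fdx1, Cyp11a1, Hsd17b3 and Lhcgr. The 250 bases before each start were searched on both strands. Star and Cyp17a1 had no window there and were not searched. Capitals mark a match in the lines that follow, each written 5′ to 3′ on the strand of the gene.

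Cyp11a1, first entry, chr9:57997774-57998023, plus strand: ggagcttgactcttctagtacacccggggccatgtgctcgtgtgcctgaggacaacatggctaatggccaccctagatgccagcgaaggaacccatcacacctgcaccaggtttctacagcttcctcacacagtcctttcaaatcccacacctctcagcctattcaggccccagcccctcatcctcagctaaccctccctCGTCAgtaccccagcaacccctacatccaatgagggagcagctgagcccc
Cyp11a1, second entry, chr9:58014702-58014951, plus strand: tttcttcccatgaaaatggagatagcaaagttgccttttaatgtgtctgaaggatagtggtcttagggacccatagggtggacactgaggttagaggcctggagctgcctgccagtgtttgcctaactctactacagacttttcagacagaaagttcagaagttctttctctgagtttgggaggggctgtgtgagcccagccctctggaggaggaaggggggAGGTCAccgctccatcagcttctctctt
Fdx1, chr9:51963603-51963852, minus strand: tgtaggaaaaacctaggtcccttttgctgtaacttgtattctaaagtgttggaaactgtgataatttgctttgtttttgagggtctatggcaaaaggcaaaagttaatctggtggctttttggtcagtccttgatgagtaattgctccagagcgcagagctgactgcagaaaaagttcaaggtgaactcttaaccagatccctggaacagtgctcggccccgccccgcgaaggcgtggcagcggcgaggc

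The NBRE (AAAGGTCA) was found in 0 of the 7 windows and in 1.34% of the 32851 windows of the table. The SF-1 site (CAAGGTCA) was found in 0 of the 7 and in 1.33% of all, and the cyclic AMP element (TGACGTCA) in 0 of the 7 and in 1.55%. The core AGGTCA, which lies within both of the first motifs, was found in the second window of Cyp11a1, starting 28 bases before the start, and in that of Lhcgr, 122 bases before it. This core is in 14.0% of all windows. The shorter part of the cyclic AMP element (TGACG) was found on the opposite strand (CGTCA) in the first window of Cyp11a1, 50 bases before the start, and in 17.8% of all windows. The Fdx1 window held 0 of these 5 motifs. A match is a description of letters and shows no binding.

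The 6 members were not equally well measured. Star and Fdx1 had a value on all 24 arrays, Cyp17a1 on 16, Hsd17b3 on 15, and Cyp11a1 and Hsd3b1 on 14 each. The median over all genes was 22 arrays. In testis, where Leydig cells lie, Star and Fdx1 were measured on all 4 arrays, Cyp17a1 and Hsd17b3 on 3, Cyp11a1 on 2 and Hsd3b1 on 1. Tests were made where no more than 1 array of the organ was without a value and each dye orientation was present, which held for 25 of the 36 pairs of member and organ. A further value of Cyp11a1 (heart replicate 2), of Cyp17a1 (brown adipose tissue replicate 1) and of Hsd3b1 (lung replicate 1 and heart replicate 1) lay in a separate mode of extreme ratios above 12, on arrays where Cy5 marked the mutant pool, and was left out as not measured. Ratios carry no level, so these arrays do not show how much of each transcript an organ held.

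**Figure D1:**
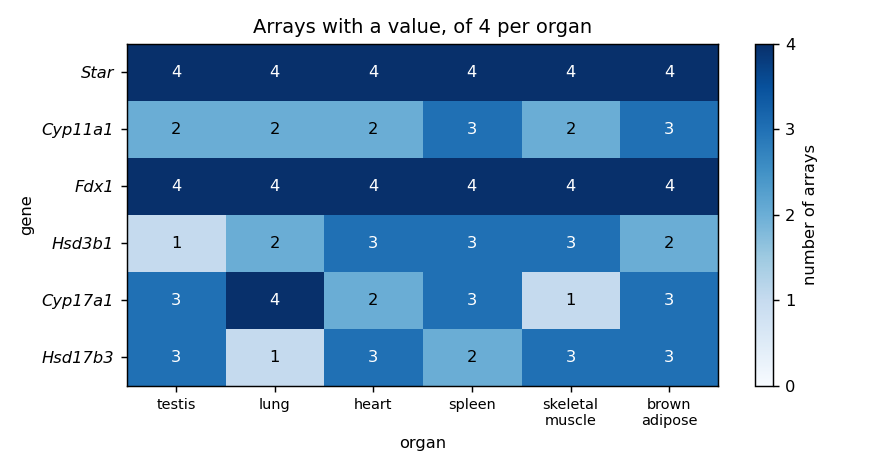
Number of arrays, of 4 per organ, on which each gene (rows) had a value in each organ (columns), with darker blue for more arrays. Star and Fdx1 were measured on every array, and Hsd3b1 had a value on 1 testis array.

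Values ranged from 13396 to 19455 per array, and array medians from -0.78 to 0.67. The interquartile range (IQR) of an array's ratios ran from 0.505 to 2.47. All ratios are log2 of mutant over wild type. No source states this direction, which is therefore only likely: Nr4a1 was below 0 on 21 of the 22 arrays that measured it, with the mutant pool in either dye. Arrays of 1 organ were only weakly alike. With probes averaged per gene, the median Spearman rho was 0.10 for the same dye orientation and -0.043 for opposite ones. In testis these were 0.06 and -0.022. Nr4a1 itself was -0.49, -0.19 and 0.08 on testis replicates 2, 3 and 4, an estimate of -0.24 ± 0.31 (SE) that did not pass the test (adjusted p = 1, limma).

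In testis none of the 4 members tested passed limma's test with Benjamini-Hochberg adjustment over the 13564 rows tested, where a row is 1 gene or 1 probe without a symbol. The background was the same, since 0% of rows were called in testis. At an unadjusted p below 0.05 the count was 0 of 4 members and 491 of all rows, or 3.62%. With limma's array weights, which let each array count by its spread, 6 testis rows passed, and no member was among them. The members' estimates were below 0 for Star, Cyp17a1 and Hsd17b3 and above 0 for Fdx1, with a median of -0.47 beside 0.02 for all rows tested. In a bulk organ, fewer cells of a type and less RNA per cell cannot be told apart.

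Star, which supplies the cholesterol, was -0.95, -0.19, 0.09 and -0.56 on testis replicates 1 to 4. It was below 0 on 3 of the 4 arrays, and the 2 dye orientations overlapped. The estimate was -0.40 ± 0.35 (SE, n = 4), with a 95% interval from -1.14 to 0.33. In fold terms this runs from 2.20-fold lower to 1.26-fold higher in the mutant pool. The limma adjusted p was 1.

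The 2 probes of Star did not give the same picture in testis. Probe 12149 was -0.19, -0.19, 0.09 and 0.22 on the 4 arrays, an estimate of -0.018 ± 0.23 with an interval from -0.50 to 0.47. For the direction assumed, that interval runs from 1.42-fold lower to 1.38-fold higher in the mutant pool. Probe 7800 was measured on replicates 1 and 4, at -1.70 and -1.33, which was too few for the test. On these arrays probe 12149 read -0.19 and 0.22, so the lower mean of Star there holds the low readings of probe 7800. Probe 7800 had a value on 13 of the 24 arrays and probe 12149 on 24.

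Over all organs the sign of probe 12149 mostly went with the dye, though its dye term did not pass after adjustment. Its mean was -0.29 over the 12 arrays on which Cy5 marked the mutant pool, where 10 values were below 0, and 0.22 over the 12 on which Cy3 did, where 11 were above 0. The difference of -0.51 ± 0.19 had an unadjusted p of 0.0134 and an adjusted p of 0.247 in limma's test of the dye term over 20203 probes, of which 0.634% passed. In testis both Cy5 values were below 0 and both Cy3 values above 0. In brown adipose tissue each orientation had both signs, at 0.29 and -0.23 for Cy5 and 0.21 and -0.32 for Cy3. Were the ratios not yet turned for the dye exchange, most values of this probe would be below 0.

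**Figure D2:**
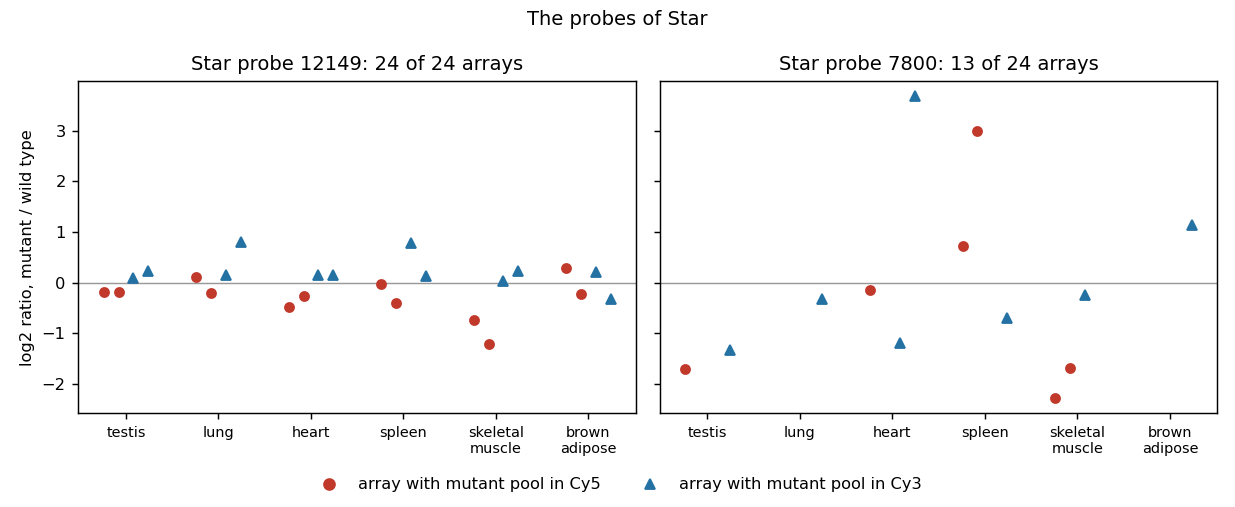
Log2 ratio of mutant over wild type (vertical axis) for the probes of Star in 6 organs, with 1 point per array, red circles for the mutant pool in Cy5 and blue triangles for Cy3. Probe 12149 lies between -1.20 and 0.81, while probe 7800 spreads from -2.28 to 3.69 on its 13 arrays.

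Cyp11a1, the side-chain cleavage enzyme that commits cholesterol to steroids, had values on 2 testis arrays. They were -0.13 on replicate 2 and -3.17 on replicate 3. Both lie below 0 but far apart, and no test was made.

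Fdx1, the ferredoxin that passes electrons to CYP11A1, was 0.34, -0.28, 0.09 and -0.023 on the 4 testis arrays. The values lie on both sides of 0, with 1 of each sign in each dye orientation. The estimate was 0.03 ± 0.22 (SE, n = 4), with an interval from -0.42 to 0.49, or from 1.34-fold lower to 1.40-fold higher. Fdx1 also serves mitochondrial cytochromes outside steroid-making cells, so its ratio in a whole organ is not one of Leydig cells alone.

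Hsd3b1, which turns pregnenolone into progesterone, had 1 testis value, -1.22 on replicate 3. Cyp17a1, which makes androgens from progestins, was 3.17, -4.31 and -0.36 on replicates 1, 2 and 3. The highest and lowest of these come from the arrays of 1 dye orientation. The estimate of -0.54 ± 1.17 has an interval from -3.10 to 2.01 and carries little information, and without replicate 2 it was 1.40.

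Hsd17b3, which makes testosterone from androstenedione, was -0.93, -2.41 and -0.26 on testis replicates 2, 3 and 4. All 3 values lie below 0, with an SD between arrays of 1.10. The estimate was -1.15 ± 0.87 (SE, n = 3), a 2.23-fold lower ratio, with an interval from -3.08 to 0.77 (limma adjusted p = 1, unadjusted p = 0.214). With the sign turned on the Cy3 arrays it was 0.53, and without replicate 3 it was -0.59.

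**Figure D3:**
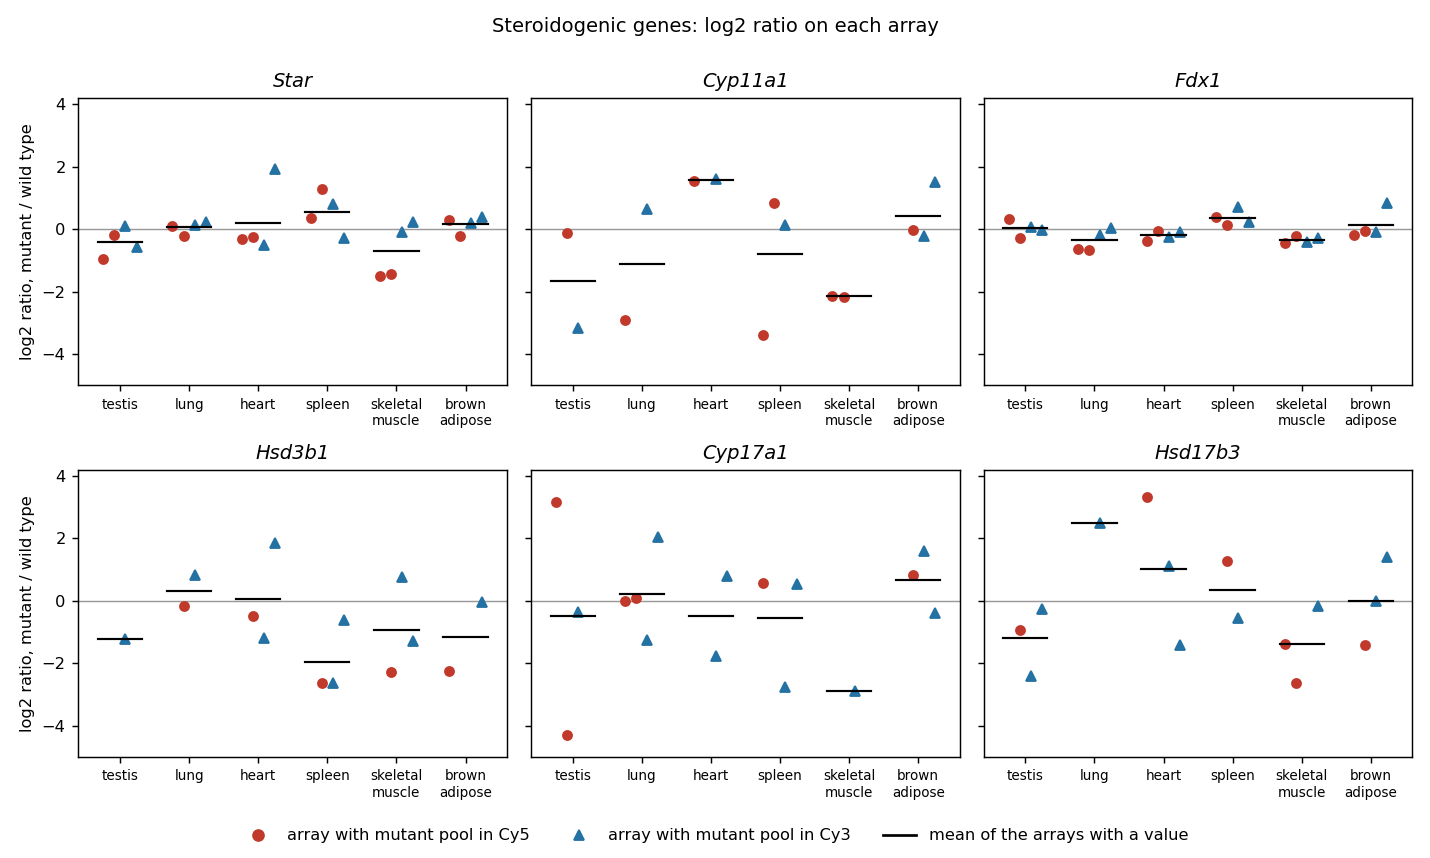
Log2 ratio of mutant over wild type (vertical axis, shared by the panels) for each of the 6 genes in 6 organs, with 1 point per array, red circles for the mutant pool in Cy5, blue triangles for Cy3 and a black line at the mean. Fdx1 stays within -0.66 and 0.84, while Cyp17a1 runs from -4.31 to 3.17 within testis.

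The members differed in how closely repeat arrays agreed. After the organ means and the dye were removed, the residual SD of Fdx1 was 0.27, smaller than in all but 1.03% of the 9782 genes compared. That of Star was 0.66, with 20.7% of genes below it, against a median of 1.06 for all genes. Hsd3b1 was at 1.18, Hsd17b3 at 1.67, Cyp11a1 at 1.77 and Cyp17a1 at 2.26, with 96.9% of genes below Cyp17a1. The 4 genes with the larger SD are those with values on 16 or fewer arrays. Within single organs, the SD between arrays of Fdx1 ran from 0.11 in skeletal muscle to 0.48 in brown adipose tissue. That of Star ran from 0.19 in lung to 1.15 in heart, while the model gave each gene 1 shared spread.

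Outside testis no member passed limma's test in any organ, with or without array weights, and 1 test had an unadjusted p below 0.05. The share of all rows called was 0.0809% in lung, 0% in heart, 1.53% in spleen, 5.58% in skeletal muscle and 0% in brown adipose tissue. At the unadjusted level it was 6.62%, 2.05%, 15.4%, 20.2% and 0.67% in the same order. The arrays of spleen (IQR 1.45 to 2.03) and skeletal muscle (1.35 to 2.47) had the widest ratios. Those of brown adipose tissue (0.505 to 0.724) and heart (0.588 to 0.865) were narrower. Under 1 shared spread, these shares therefore do not rank the organs by the size of a difference. The members tested were 3 in lung, 4 in heart, 5 in spleen, 4 in skeletal muscle and 5 in brown adipose tissue. Counting testis, 13 of the 25 estimates were below 0 and 12 above.

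Hsd3b1 in spleen had the smallest unadjusted p. Its values were -2.65, -2.65 and -0.61 on replicates 2, 3 and 4. All 3 are below 0, with the low ones in opposite dye orientations. The estimate was -2.20 ± 0.65 (SE, n = 3), a 4.59-fold lower ratio with an interval from -3.64 to -0.75. Its unadjusted p of 0.00684 became 0.136 after limma's adjustment, and 15.4% of all spleen rows had an unadjusted p below 0.05. Were the ratios not yet turned for the dye exchange, the estimate would be -0.10. Hsd3b3, a closely related gene with its own probes, was -1.11 ± 0.39 there (adjusted p = 0.156). The relatives did not share 1 direction in spleen. Hsd3b2 was 0.17 ± 0.87, with values from -4.31 to 4.27. Hsd3b4 was -2.26 ± 0.95 (limma adjusted p = 0.297), with -5.99 on replicate 2 and 0.08 and 0.25 on replicates 3 and 4. How far such near copies share signal on cDNA probes was not tested. In skeletal muscle Hsd3b1 was -2.27, 0.77 and -1.29 on replicates 2, 3 and 4, an estimate of -1.16 ± 0.65 (adjusted p = 0.359). In heart it was -0.49, -1.19 and 1.86, an estimate of -0.17 ± 0.65. The pairs of values in lung, -0.17 and 0.83, and in brown adipose tissue, -2.25 and -0.046, were not tested.

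Star in skeletal muscle was -1.51, -1.44, -0.10 and 0.23. Both Cy5 arrays of the mutant pool were lower than both Cy3 arrays, and the medians of these arrays moved the same way, at -0.44, -0.78, -0.008 and 0.67. With each array centred on its median the estimate was -0.56 (limma adjusted p = 0.439). Uncentred it was -0.71 ± 0.35 (SE, n = 4), with an interval from -1.44 to 0.03 (unadjusted p = 0.0586, limma adjusted p = 0.271). Probe 12149 gave -0.42 ± 0.23 and probe 7800 -1.36 ± 0.98 in this organ.

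In spleen Star was 0.35, 1.30, 0.79 and -0.29, an estimate of 0.54 ± 0.35 (adjusted p = 0.494). The highest value contains a reading of 3.01 from probe 7800 beside -0.41 from probe 12149. In heart the values were -0.32, -0.26, -0.52 and 1.92, an estimate of 0.21 ± 0.35. Without replicate 4, on which probe 7800 read 3.69 and probe 12149 read 0.16, it was -0.31. In lung Star was 0.11, -0.21, 0.14 and 0.24, an estimate of 0.07 ± 0.35. In brown adipose tissue it was 0.29, -0.23, 0.21 and 0.41, an estimate of 0.17 ± 0.35.

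Before arrays were centred, Fdx1 had 1 sign over the 4 arrays in 3 organs. It was -0.45, -0.23, -0.42 and -0.28 in skeletal muscle, an estimate of -0.35 ± 0.22 with an interval from -0.80 to 0.11 (limma adjusted p = 0.397). In heart it was -0.38, -0.05, -0.25 and -0.10, an estimate of -0.19 ± 0.22. In spleen all 4 values were above 0, at 0.38, 0.13, 0.71 and 0.23, an estimate of 0.36 ± 0.22 (adjusted p = 0.455). After each array's median was subtracted, both signs appeared in all 3 organs, at 0.003, 0.58, -0.43 and -0.97 in skeletal muscle. The heart values were then -0.36, 0.026, -0.29 and -0.12, the spleen values 0.40, 0.45, 0.93 and -0.11, and the skeletal muscle estimate was -0.20. None of these differences was larger than the hybridisation error by the test. In lung Fdx1 was -0.64, -0.66, -0.18 and 0.05, an estimate of -0.36 ± 0.22, and in brown adipose tissue -0.18, -0.06, -0.10 and 0.84, an estimate of 0.12 ± 0.22. In all 6 organs the uncentred interval of Fdx1, in the direction assumed, stayed within 1.76-fold of 1. These intervals use the spread shared over organs and hold only the error between hybridisations of the same pools. They do not exclude a larger ratio with arrays centred, with the sign turned on the Cy3 arrays or between other animals.

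Cyp11a1 gave pairs of close values in 2 organs that could not be tested. They were -2.13 and -2.17 in skeletal muscle, both on arrays of the Cy5 orientation, and 1.54 and 1.62 in heart, 1 in each orientation. In spleen the values were -3.39, 0.83 and 0.15, an estimate of -0.70 ± 0.91, and in brown adipose tissue -0.016, -0.22 and 1.51, an estimate of 0.33 ± 0.91. In lung it was -2.90 on replicate 1 and 0.64 on replicate 3. The sign of the spleen estimate rests on replicate 1, without which it was 0.49.

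Cyp17a1 was -0.001, 0.08, -1.27 and 2.05 in lung, an estimate of 0.21 ± 1.0. In spleen it was 0.57, -2.76 and 0.55 on replicates 1, 3 and 4, and in brown adipose tissue 0.83, 1.59 and -0.37 on replicates 2, 3 and 4. The estimates there were -0.50 ± 1.17 and 0.72 ± 1.17. It had 2 heart values, -1.78 and 0.80, and 1 skeletal muscle value, -2.90, none tested. In each organ with more than 1 value, the values of Cyp17a1 lay on both sides of 0.

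Hsd17b3 was 3.32, 1.13 and -1.43 in heart on replicates 1, 3 and 4, an estimate of 1.05 ± 0.87. In skeletal muscle it was -1.39, -2.65 and -0.15 on replicates 1, 2 and 4, all below 0, an estimate of -1.44 ± 0.87 (adjusted p = 0.396). In brown adipose tissue it was -1.41, 0 and 1.39, an estimate of 0.04 ± 0.87. The spleen values of 1.27 and -0.56 and the lung value of 2.49 were not tested.

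**Figure D4:**
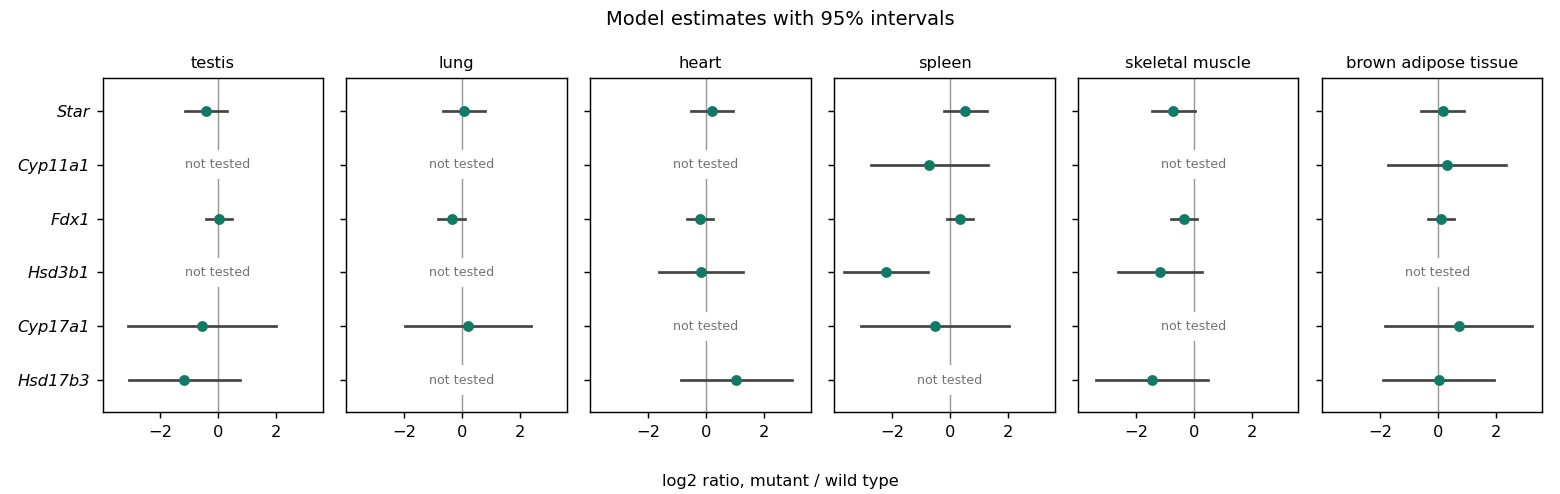
Estimated log2 ratio of mutant over wild type (horizontal axis, points) with 95% intervals (lines) for the 6 genes in each organ, and the pairs of gene and organ that were not tested. Of the 25 intervals, that of Hsd3b1 in spleen, from -3.64 to -0.75, does not cross 0, and it does not pass after adjustment over all rows.

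Whether a ratio differed between organs could be tested for Star and Fdx1. The F statistic was 1.66 for Star (adjusted p = 0.764, limma) and 1.70 for Fdx1 (adjusted p = 0.747), over 7553 rows of which 0.98% passed. Testis minus the mean of the other 5 organs was -0.46 ± 0.39 for Star, from -0.40 in testis and 0.06 elsewhere. For Fdx1 it was 0.11 ± 0.24, from 0.03 and -0.08. Neither passed (limma adjusted p = 1.0 for both), and 0.0132% of rows did. As the F test passed for neither gene, their estimates set no order of organs. The 95% intervals of the 6 organs overlapped for both genes, which is not itself a test of a difference.

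The dye term of a member did not pass in any of the 6 cases, against 0.564% of 16147 rows. Hsd3b1 had the largest, at -1.39 ± 0.64 (unadjusted p = 0.0548, limma adjusted p = 0.387). Star was at -0.47 ± 0.29 (adjusted p = 0.506).

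By organ, the members' median estimate was 0.07 in lung beside -0.011 for all rows, 0.019 in heart beside -0.017, and -0.50 in spleen beside -0.07. It was -0.93 in skeletal muscle, where 4 of 4 estimates were below 0, beside -0.16 for all rows, 58.2% of which were below 0. With the sign turned Fdx1 was at 0.0043 there. It was 0.17 in brown adipose tissue, where 5 of 5 were above 0, beside -0.07 for all rows, 38.9% of which were above 0. With the sign turned on the Cy3 arrays all 5 were below 0, from -0.99 for Hsd17b3 to -0.11 for Cyp17a1, so this count rests on the direction. Without the dye term Hsd17b3 alone was at -0.007 there. These medians cover 3 to 5 genes each, which differ between organs.

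The pathway was taken as 3 lists with 125 genes, of which 80 were on the array. Without the members and Nr4a1, which the mice lack, 73 remained. In testis 0 of the 61 of these that were tested passed (limma), and 4, or 6.56%, had an unadjusted p below 0.05, beside 3.62% of all rows. In lung 0 of 58 passed and 4 (6.90%) had an unadjusted p below 0.05, beside 6.62% of all rows. In heart 0 of 60 passed and 2 (3.33%) did at the unadjusted level, beside 2.05%. In brown adipose tissue 0 of 69 passed and 1 (1.45%) did at that level, beside 0.67%. In spleen 1 of 58 passed, or 1.72% beside 1.53% of all rows, and 9 (15.5%) did at the unadjusted level, beside 15.4%. In skeletal muscle 3 of 62 passed, or 4.84% beside 5.58%, and 12 (19.4%) did at the unadjusted level, beside 20.2%. The shares past the test in spleen and skeletal muscle are near the background.

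Of the steroidogenic enzymes and carriers, 29 of 47 were on the array, and their median estimate in testis was -0.026. Outside the members, the largest testis ratios with 1 sign on every array were those of Tspo, a cholesterol-binding protein of the outer mitochondrial membrane, and Acbd3, which can bind it. Tspo was 2.02, 2.67, 0.34 and 3.50, an estimate of 2.13 ± 0.85 (unadjusted p = 0.0257, limma adjusted p = 1). Acbd3 was 0.74 ± 0.41. With the sign turned on the Cy3 arrays they were 0.21 and 0.37. In spleen Hsd17b12, a ketoreductase of fatty acid elongation and steroid metabolism, was higher in the mutant pool. Its values were 2.28, 2.30, 3.17 and 0.51, a ratio of 2.06 ± 0.43 or 4.18-fold (limma adjusted p = 0.0216). It did not pass without spleen replicate 2 (0.0600), without replicate 3 (0.0779) with array weights (0.106), with arrays centred and scaled (0.377) or with the organ fitted alone (0.870).

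In skeletal muscle Stard3, a cholesterol carrier of late endosomes, was 2.12, 3.67 and -0.028, an estimate of 1.98 ± 0.49 (limma adjusted p = 0.0222, n = 3). Its call was lost without replicate 3, where it was 1.04 (0.204), with arrays centred and scaled (0.259), with the organ fitted alone (0.599) and where each organ had its own dye term (0.0658). Akr1c21, a hydroxysteroid dehydrogenase, was lower by 3.47-fold, at -1.79 ± 0.45 (adjusted p = 0.0204). Cyb5b, an outer mitochondrial cytochrome b5, was lower by 2.35-fold, at -1.23 ± 0.31 (adjusted p = 0.0211). The call of Akr1c21 was lost without replicate 1 (adjusted p = 0.0552), 2 (0.0596) or 4 (0.109), and that of Cyb5b without the same arrays (0.0900, 0.0923 and 0.0639). With array weights their adjusted p were 0.460 and 0.177, with arrays centred 0.0648 and 0.0882, with scaling too 0.959 and 0.739, and with the organ fitted alone 0.549 and 0.560. With the sign turned on the Cy3 arrays, Hsd17b12 in spleen and Stard3, Akr1c21 and Cyb5b in skeletal muscle did not pass, at 0.22, -0.40, -0.26 and -0.25.

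Of the genes of gonadotropin signalling and regulation, 30 of 45 were on the array, with a testis median of 0.05. Nr4a1 passed in skeletal muscle, at -2.55, -2.10 and -0.67 on replicates 1, 2 and 3, a 3.32-fold lower ratio of -1.73 ± 0.31 (limma adjusted p = 0.00222, n = 3). It did not pass with the separate mode kept (0.692), with arrays centred and scaled (-0.87, 0.366), with the organ fitted alone (0.563) or with the sign turned (-1.06, 0.0724). In 4 other organs Nr4a1 was below 0 on all 4 arrays and did not pass after adjustment in the main model. It was -1.14 ± 0.26 in brown adipose tissue (limma unadjusted p = 0.000426) and -0.75 ± 0.26 in spleen (0.0111). In heart it was -0.67 ± 0.26 (0.0204) and in lung -0.38 ± 0.26 (0.163). In brown adipose tissue it passed with array weights (-1.15, limma adjusted p = 0.00240) and with arrays centred and scaled (-2.02, 0.00541). With weights from rows with all values, added after seeing the data, it passed there (0.00877) and in heart (0.0468). The main model thus did not call Nr4a1 in these 4 organs, and a member that did not pass may still differ. Nr5a1, which encodes SF-1, was -0.29, 0.42, 0.28 and 1.98 in testis, an estimate of 0.60 ± 0.64. It was named after its values were seen, as were Hsd3b2, Hsd3b3, Hsd3b4 and Scap. Akap1, which anchors protein kinase A at mitochondria, was 0.69, 2.59, 1.65 and 1.34 in testis, an estimate of 1.57 ± 0.42 (unadjusted p = 0.00122, adjusted p = 1). Its probes disagreed, with -0.07 ± 0.41 for probe 14085 and 3.21 ± 0.52 for probe 17839. It passed under array weights (adjusted p = 0.00930) and where arrays were centred and scaled (0.0431). With the probe of most values, 14085, it stood at -0.07, and with the sign turned at 0.07. Pde8b, a cyclic AMP phosphodiesterase, was 0.70 ± 0.39 in testis, 0.36 without replicate 1 and 0.23 with the sign turned.

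Of the genes of cholesterol synthesis and supply, 21 of 34 were on the array, with a testis median of 0.14. Insig2, which retains the sterol sensor in the endoplasmic reticulum, was 3.58, 1.82, 1.51 and 1.56 in testis, an estimate of 2.12 ± 0.82 (unadjusted p = 0.0253, limma adjusted p = 1), and 0.58 with the sign turned. Srebf2, the transcription factor of that sensor, was -0.69 ± 0.50, and -0.13 without replicate 1. It was -2.25 on replicate 1 and between -0.25 and -0.14 on the others. Scap, also on this list, was -2.17, -4.45 and 0.08 on testis replicates 2, 3 and 4. The 2 low values come from opposite dye orientations, so with the sign turned on the Cy3 arrays they would differ in sign. Its estimate was -2.47 ± 1.08 (limma unadjusted p = 0.0396), and it did not pass after adjustment. Tspo, Akap1, Insig2 and Scap are the pathway genes with an unadjusted p below 0.05 in testis.

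**Figure D5:**
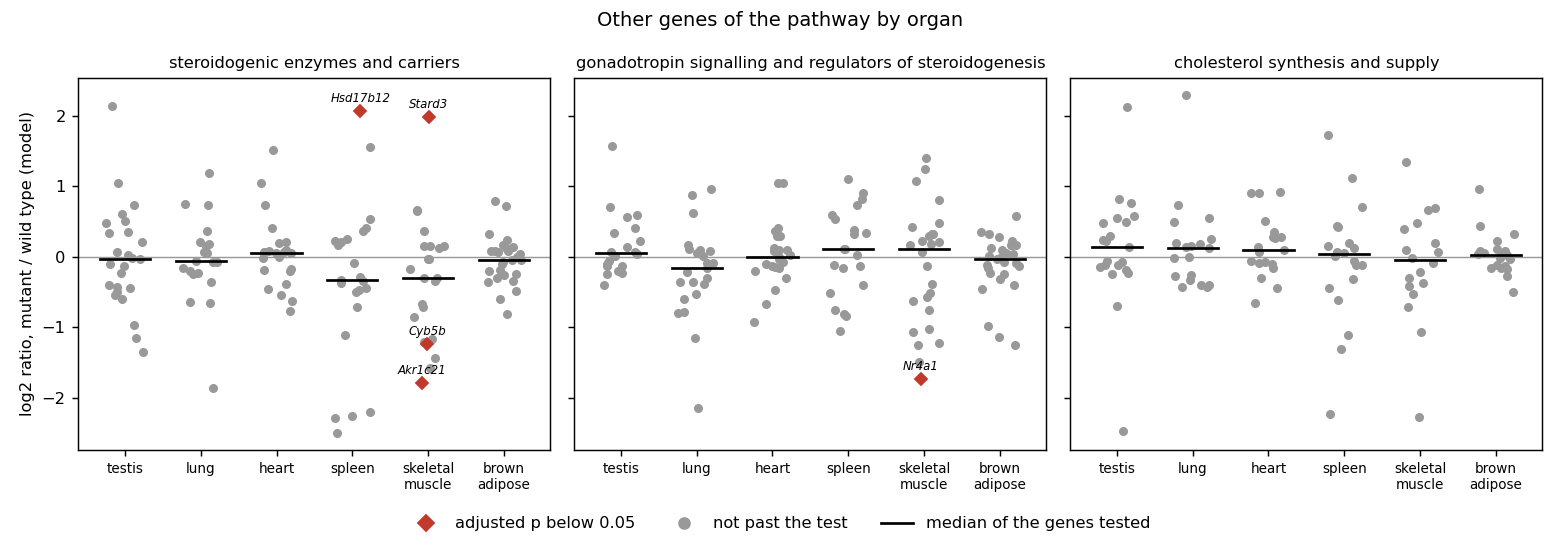
Estimated log2 ratio of mutant over wild type (vertical axis) for the genes tested of 3 pathway lists (panels) in 6 organs, with red diamonds for an adjusted p below 0.05, grey circles for the rest and a black line at the median. The diamonds are Hsd17b12 in spleen and Stard3, Akr1c21, Cyb5b and Nr4a1 in skeletal muscle, and testis has none.

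The labelled testis was checked against markers of its cells. Of 18 germ cell genes on the array, 15 had a value on all 4 testis arrays, and 95.8% of their cells in the table were filled, against 86.7% for all genes. Sertoli cell genes were at 93.8% in testis and equally in brown adipose tissue, where germ cell genes were at 90.3%. The fill of the Sertoli list is thus not particular to testis. Leydig cell genes, a list that holds the 6 members, were at 76.8% in testis, with 5 of 14 on all 4 arrays. In brown adipose tissue they were at 91.1%, against 93.4% for all genes there. How bright these spots were is not given with the ratios, so presence could not be read from a level. The lists of Leydig, Sertoli and germ cells, epididymis, macrophages, endothelium, adrenal cortex and peritubular muscle had 0 genes past the test in testis, with 1 germ cell gene at an unadjusted p below 0.05. That gene is Zbtb16, a factor of undifferentiated spermatogonia, at 1.86 ± 0.70. The rule for names also takes Tjp1 at 1.09 ± 0.83, Vcam1 at 0.51 ± 0.80, Acrv1 at 1.0 ± 0.50, Lcn8 at 0.40 ± 0.38 and Lcn5 at 0.11 ± 0.60. Without replicate 2 Tjp1 was 0.18, Lcn8 0.09 and Lcn5 -0.06. Vcam1, a Leydig cell gene on the list, was 0.27 without replicate 3 and -0.36 with the sign turned, and Acrv1 was then 0.15. Of the members, which are on the Leydig list too, Hsd17b3 on 3 testis arrays and Cyp11a1 on 2 lay below 0 on each. Star, Fdx1 and Cyp17a1 had testis values on both sides of 0. Of the 11 genes of the Leydig list tested in testis, 7 estimates were below 0 and 4 above, beside 47.3% of all rows below 0. In skeletal muscle Smcp, a sperm mitochondrial protein gene, was -2.84 ± 0.59 (limma adjusted p = 0.0111), beside 5.58% of all rows called there. It passed in 5 of 11 alternatives of processing, and not with array weights (0.341), with arrays centred and scaled (-1.49, 0.520), with the separate mode kept (0.601), with the organ fitted alone (0.549) or with the sign turned (-0.61, 0.719).

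For the 2 members with enough arrays, genes with a like pattern were sought among 6554 genes, after each array's median was subtracted. Star was most like Lyzl4 (Pearson r = 0.77 over 20 arrays) and Tigd2 (r = 0.70 over 24). Fdx1 was most like Rabgef1 and Arfrp1 (r = 0.78 over 24 arrays for both). These are the highest of many correlations over arrays that share pools, organs and dye orientation, and they are a description.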

How the data were processed

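The deposited table holds a log2 ratio for each probe on each array, as the authors normalised it. How they scaled, centred or oriented it, and with which software, filter and background correction, is not given in the sources used here. RNA (20 µg in total) was labelled indirectly with Cy3 or Cy5, per the labels' protocols. Base 2 was assumed: 1.24% of values form a separate mode with sizes from 15.7 upward, close to the logarithm of a full scanner range in that base, and there are none from 9.94 to 15.7. Any value of size above 12 was taken as missing.

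Of 20205 probes, 13891 have 1 symbol in the platform table, 5 several and 6309 none there. Probes of 1 symbol were averaged (2969 genes had several), which gave 16148 rows. Differences were tested with limma 3.58.1 in R 4.3.3, in 1 model over the 24 arrays with 6 organ coefficients and 1 dye term, without centring, and with Benjamini-Hochberg adjustment per organ at 0.05. Standard errors and intervals are the model's, with 1 spread per gene shared over the 6 organs, and p-values are two-sided. Because values are missing, differences between organs came from nested and reparameterised fits. The script was tested on simulated data. The number of arrays limits the precision.

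The members and lists were chosen with earlier results of these data known. The rule for names takes the members, list genes past the test in testis, up to 4 per list past it in another organ, the 2 largest ratios of 1 sign in testis where a list has none, Nr4a1, and the 2 genes most like Star and Fdx1. Alternatives were the separate mode, centring, scaling, the dye term, array weights, complete rows, 1 probe per gene, the sign, a replicate block, organs alone and each array left out. Weights from complete rows were added after seeing the data.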

Additional observations from a re-analysis of the deposited data

Results flagged for a closer look

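In heart, Star on replicate 4 (1.92) lay far from the other 3 arrays, the nearest of which was at -0.26. The gap is 0.892 of the range of the 4 values, above Dixon's 95% limit for 4 values. Of its probes, 7800 read 3.69 on that array and 12149 read 0.16.

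In brown adipose tissue, Fdx1 on replicate 4 (0.84) lay apart from the others, the nearest of which was at -0.06. The gap is 0.882 of the range.

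These are 2 of the 13 groups of 4 member values examined, and chance marks about 1 group in 20.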

How the results depend on the processing

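No member passed the test in any organ under any alternative. This holds for 287 values under the 12 alternatives of processing, 28 of which had the other sign, and for 88 values with an array left out, 12 of which did. The smallest adjusted p values (limma) were 0.116 and 0.115.

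Estimates that changed sign, in log2, were these. With the separate mode kept, Hsd3b1 in heart was 4.16. With arrays centred, Fdx1 in testis was -0.0028, and with scaling too Hsd3b1 in heart was 0.14 and Hsd17b3 in brown adipose tissue -0.074. Without the dye term the last 2 were 0.061 and -0.007, and Hsd17b3 in brown adipose tissue was -0.36 with a dye term per organ or with organs fitted alone. With array weights Fdx1 in testis was -0.050 and Hsd17b3 in brown adipose tissue -0.38. With weights from complete rows, chosen after seeing the data because the weights had first been made that way, they were -0.059 and -0.75. With the probe of most values, Star was -0.11 in heart and -0.011 in brown adipose tissue, and its testis minus the other organs was 0.022. With the sign turned on the Cy3 arrays, Hsd17b3 was 0.53 in testis and -0.99 in brown adipose tissue. Fdx1 was then -0.00025 in testis, -0.11 in spleen, 0.0043 in skeletal muscle and -0.25 in brown adipose tissue. Star was -0.12 in lung, -0.49 in heart and -0.14 in brown adipose tissue, with testis minus the others at 0.080. Cyp17a1 was -0.17 in lung, 0.95 in spleen and -0.11 in brown adipose tissue, and Cyp11a1 was -0.53 there.

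The replicate numbers do not pair the arrays: the median correlation of deviations between organs was 0.042 for the same number and for another number of the same dye, and 11 of 24 arrays matched best with their own number. With the replicate block, Cyp11a1 in brown adipose tissue was -0.24, and no call on a member changed.

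With an array left out, the ranges that crossed 0 were -0.12 to 0.10 for Fdx1 in testis, -0.034 to 0.18 for its testis minus the other organs, and -2.33 to 1.40 for Cyp17a1 in testis. They were -0.025 to 0.13 for Star in lung, -0.31 to 0.55 for Star in heart, -0.52 to 0.72 for Cyp17a1 in lung, and -1.10 to 0.56 for Cyp17a1 and -1.62 to 0.49 for Cyp11a1 in spleen. They were -0.84 to 0.69 for Hsd3b1 in heart, and in brown adipose tissue -0.12 to 0.75 for Cyp11a1, -0.71 to 0.037 for Hsd17b3 and -0.090 to 0.24 for Fdx1.

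Pathway genes past the test, 1 in spleen and 4 in skeletal muscle with Nr4a1 counted, were 0 and 0 with arrays centred and scaled or with organs fitted alone, 0 and 2 with either kind of array weights, and 2 and 7 with the probe of most values. Skeletal muscle had 2 with arrays centred, and spleen 0 with complete rows or the sign turned. Testis had 1 with scaling or either kind of weights. Brown adipose tissue had 2 with scaling, 2 with array weights and 1 with weights from complete rows, which also gave 1 in heart. With an array left out the counts ran from 0 to 1 in lung, 0 to 2 in spleen and 2 to 5 in skeletal muscle. The cause of these changes was not tested. Depth is unknown, since the values give no signal.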
